A study of Mus musculus with 4 samples.

Results

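Expression in the ligated inferior vena cava of Cd39-null mice was set against that of wild-type mice, with 1 microarray on each side. The comparison used 2 of the 4 arrays of the series. It covered 14115 genes of the 18820 that had a probe set carrying exactly 1 gene symbol. The brightest probe set stood for each gene, and genes with a mean over the 4 arrays under the 25th percentile were left out.

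Both ligated groups had the infrarenal vena cava tied off and were taken at 48 h. One was wild-type C57BL/6J, and the other carried the CD39 knockout, backcrossed to the same strain for at least 8 generations. The sham groups, 1 of each genotype, had the vein dissected but not tied. All mice were 8 to 10 weeks old, and RNA of 4 mice was pooled for each array; the sex of each pool is not stated. The labels describe both complete and partial ligation, and both whole clotted veins and veins separated from their clot, without saying which were used for RNA. A pool on a single array gives no measure of the spread between mice. The ligated difference therefore has no test and no replicate check, and it compares these pools rather than the genotypes.

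CD39 is the ectoenzyme encoded by Entpd1. It sits on endothelial cells and leukocytes and degrades extracellular ATP and ADP to AMP, which CD73 (Nt5e) then turns into adenosine. ADP activates platelets through P2Y receptors and ATP recruits inflammatory cells, whereas adenosine restrains both. A stasis thrombus in the mouse vena cava is built from platelets, fibrin, red cells and an early infiltrate of neutrophils, followed by monocytes.

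Levels are log2 values made by the authors with RMA, a method that subtracts background, forces the arrays to 1 distribution and summarises probes. Throughout, 4 values given in a row belong to wild type, sham, then wild type, ligated, then Cd39-null, sham, and last the array labelled Cd39-null, ligated. A difference is the array labelled Cd39-null, ligated, minus wild type, ligated, on the log2 scale, so that 1 is a 2-fold difference. The 95th percentile of 1006 olfactory receptor probe sets served as background and lay at 2.66 on the wild-type and 2.68 on the other ligated array. Where 1 side was under background, it was raised to background and the fold is given as a lower bound.

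The targeted gene did not separate the ligated arrays. Entpd1 read 7.11, 6.17, 4.16 and 6.14. It was 7.73-fold lower in Cd39-null than in wild type after sham surgery, but the ligated arrays differed by -0.03. On the ligated knockout array this level goes against its label, and every direction given here rests on that label. The single Entpd1 probe set was low on the Cd39-null, sham array, where its difference was the third-lowest of the 14115 genes; whether it covers the deleted part of the gene is not given in the sources used here. Of the 10 measured genes on each side of Entpd1, 19 were less than 2-fold apart in ligated veins and 1 was lower. That gene was Blnk, a B cell adaptor, at 4.07, 4.94, 5.78 and 3.12. The Y-linked Kdm5d, Eif2s3y and Uty were above background on all 4 arrays, and their ligated differences ran from -0.17 to 0.50. The X-linked Xist, left out by the filter, read 1.90, 1.63, 1.74 and 1.58, under background on all 4 arrays. Among 13 housekeeping genes none was 2-fold apart, with a median difference of -0.00, from Gusb at -0.82 to Pgk1 at 0.88.

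Of the 14115 genes, 885 (6.27%) were at least 2-fold apart between the ligated arrays. Of these, 510 (3.61%) were higher with the Cd39-null label and 375 (2.66%) lower. The median difference over all genes was -0.03, and the central 95% of genes lay between -1.02 and 1.22. The tails were uneven, with 135 genes at least 4-fold higher and 39 at least 4-fold lower. Platelet and neutrophil genes led the upper end. Smooth muscle, resident macrophage, antigen presentation and matrix genes stood at the lower end. The vein wall itself was measured on both arrays: all 27 endothelial genes were above background on each, with median levels of 5.02 and 4.77, as were 19 of 22 smooth muscle genes.

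**Figure D1:**
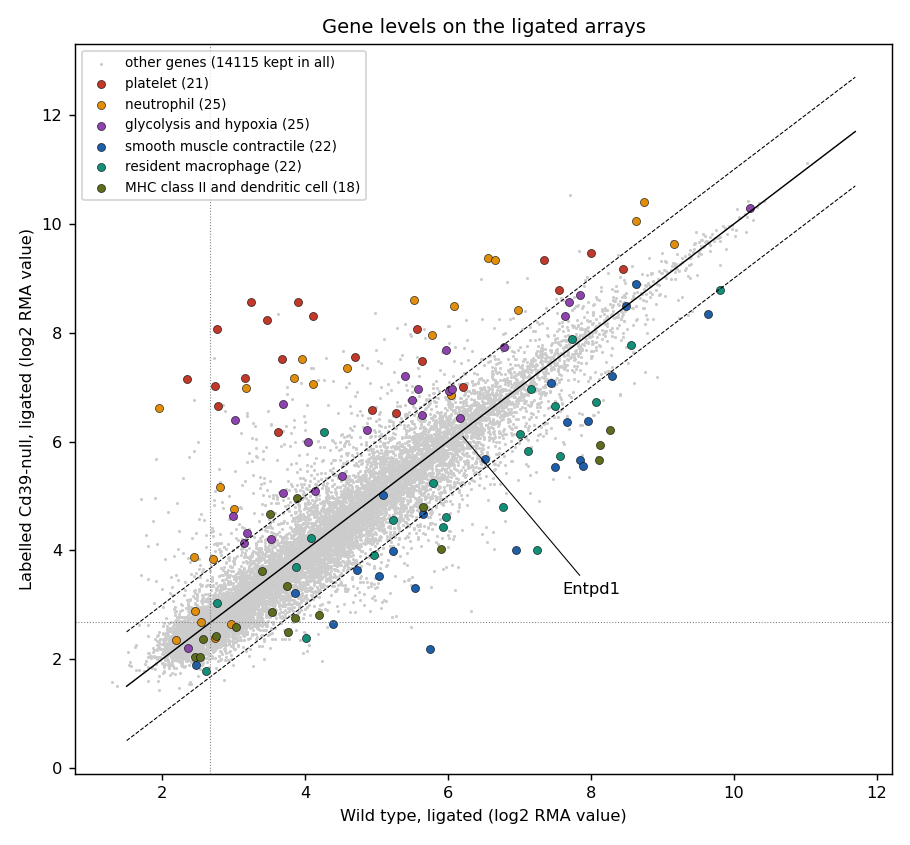
Each point is 1 of 14115 genes, by its log2 value in wild type, ligated (horizontal axis) against the array labelled Cd39-null, ligated (vertical axis). The solid line marks equal values, dashed lines a 2-fold difference and dotted lines the background of each array; coloured points are members of 6 gene lists, with the number measured in brackets. Most platelet (19 of 21) and neutrophil (18 of 25) genes lie above the upper dashed line, 14 of 22 smooth muscle genes below the lower one, and Entpd1 on the line of equal values.

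The array labelled Cd39-null, ligated, stood alone for most of the higher genes. It was the highest of the 4 arrays for 483 of the 510 (94.7%), and at least 2-fold above each of the other 3 for 354 (69.4%). The lower genes were of mixed origin. For 202 of the 375 (53.9%) wild type, ligated, was the highest of the 4 arrays, and for 272 (72.5%) the array labelled Cd39-null, ligated, was the lowest. It was at least 2-fold below each of the others for 130 (34.7%). These are positions among the same 4 pools and carry no test.

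Platelet genes were the group furthest apart. Of 21 measured members of a list of 25, 19 were at least 2-fold higher and none lower, against 3.61% of all genes, and the median difference was 2.86, or 7.28-fold. The median level of the list was 4.84, 4.11, 4.21 and 7.56. The highest difference of all genes belonged to Gp9, a subunit of the platelet receptor for von Willebrand factor. It read 4.32, 3.24, 3.76 and 8.57, a 40.2-fold difference between the ligated arrays. Only the last of these arrays is high, and the other 3 range from 3.24 to 4.32.

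The platelet tubulin Tubb1 read 4.02, 2.76, 2.20 and 8.06, a difference of 5.30. Clec1b, the receptor for podoplanin, read 6.11, 3.90, 3.91 and 8.56. Both were lower in wild type, ligated, than in wild type, sham, so the wild-type side adds to their distance. Alox12, the platelet 12-lipoxygenase, differed by 4.76, Gp5, of the same receptor complex as Gp9, by 4.29, and Nrgn, a calmodulin-binding protein, by 4.19. Cd226, an adhesion receptor, differed by 4.02. The chains of the fibrinogen receptor, Itga2b and Itgb3, were apart by 3.87 and 3.84. The inhibitory receptor Mpig6b was under background in wild type, ligated, at 2.35 and reached 7.15 on the array labelled Cd39-null, so it was at least 22.5-fold higher there.

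The 2 platelet genes less than 2-fold apart were Pf4, a platelet chemokine (7.96, 8.45, 7.03 and 9.18), and Vwf (7.54, 6.21, 6.61 and 7.01), which endothelium also makes. Vwf, Selp, Thbs1, Ctla2a and P2ry12 are expressed outside platelets as well. In bulk RNA a larger number of cells and more RNA per cell cannot be told apart, and whether clot was included is not stated, so the part of clot in any of these differences was not tested. In sham veins the same list ran the other way. Its median there was -0.92, and 8 of 21 genes were at least 2-fold lower in Cd39-null, against 3.54% of all genes.

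The start regions of 3 of these genes are shown because they hold AGATAA, the letters bound by GATA factors that drive megakaryocyte genes. They run from 250 bases before to 50 after the gene's start, from RefSeq on GRCm38.p6, with each match on either strand in capitals.
Clec1b, chr6:129397047-129397346, plus strand: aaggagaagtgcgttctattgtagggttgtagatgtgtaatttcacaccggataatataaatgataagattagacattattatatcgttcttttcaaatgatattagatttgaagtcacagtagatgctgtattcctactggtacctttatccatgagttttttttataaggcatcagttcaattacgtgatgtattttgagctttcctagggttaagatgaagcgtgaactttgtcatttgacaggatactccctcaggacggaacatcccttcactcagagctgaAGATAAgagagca
Gp5, chr16:30310732-30311031, minus strand: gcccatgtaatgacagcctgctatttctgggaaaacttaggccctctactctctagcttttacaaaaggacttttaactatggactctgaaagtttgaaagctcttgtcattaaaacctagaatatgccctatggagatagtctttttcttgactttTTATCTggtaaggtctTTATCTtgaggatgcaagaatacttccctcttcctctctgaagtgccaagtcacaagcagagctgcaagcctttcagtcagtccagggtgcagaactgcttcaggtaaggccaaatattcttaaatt
Mpig6b, chr17:35066135-35066434, minus strand: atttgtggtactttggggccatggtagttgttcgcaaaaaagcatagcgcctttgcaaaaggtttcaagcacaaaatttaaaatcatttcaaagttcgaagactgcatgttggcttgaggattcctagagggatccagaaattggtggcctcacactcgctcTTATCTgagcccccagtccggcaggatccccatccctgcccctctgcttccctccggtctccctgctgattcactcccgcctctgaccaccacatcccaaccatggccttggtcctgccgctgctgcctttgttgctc
Such a match was present in 5 of the 15 measured platelet genes with a listed start region, which were these 3 with Pf4 and Ctla2a. It was present in 11.4% of all 27025 regions, 7.16% of those of the measured genes and 10.1% of those of the 387 higher genes that had one. The share among the higher genes lies between those backgrounds, and a match is only a string of letters.

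Among coagulation genes factor V stood apart. Of 18 measured, 4 were at least 2-fold higher, against 3.61% of all genes, and none lower, and the median was 0.20. Its gene, F5, read 3.48, 2.72, 2.52 and 7.53, a difference of 4.81 and 28.0-fold. The thrombin receptor F2rl2 differed by 3.27, F10 by 2.42 and F7 by 1.17. F5 and F2rl2 are also carried by megakaryocytes or platelets, whose list had a median of 2.86; their part in this was not tested. Tissue factor, F3, which starts coagulation, was at -0.94, and Thbd, the endothelial thrombin cofactor for protein C, at 0.90. Of 10 measured genes listed under plasminogen activation, 2 were at least 2-fold higher. These were the urokinase receptor Plaur (1.65) and Tgm2 (1.22), a transglutaminase that cross-links proteins. Urokinase itself, Plau, was at 0.00.

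Neutrophil genes followed the platelet genes. Of 25 measured members of 27, 18 were at least 2-fold higher, against 3.61% of all genes, and none lower. The median was 1.76, or 3.39-fold. The median level of the list was 3.64, 3.95, 3.88 and 7.06. Mmp8, the neutrophil collagenase, read 3.28, 3.17, 4.91 and 6.99, and Il1r2, a decoy receptor for interleukin-1, read 3.99, 3.95, 3.59 and 7.52. The wild-type arrays are alike for both genes and the last array is high. Hdc, which makes histamine in neutrophils and mast cells, differed by 3.33. Csf3r, the receptor for the granulocyte growth factor, read 3.69, 5.52, 4.07 and 8.61 and differed by 3.08. Trem1, which amplifies myeloid activation, was under background in wild type, ligated, and at least 15.5-fold higher on the array labelled Cd39-null. Of the 25, 18 were above background on both ligated arrays, the granule gene Mmp8 among them. Some other granule genes lay at or near background on both, so their differences cannot be read. Elane was at 2.73 and 2.38, Camp at 2.96 and 2.64 and Prtn3 at 2.55 and 2.69. In sham veins 6 of the 25 were at least 2-fold higher in Cd39-null, against 2.95% of all genes, and the list median there was 0.24.

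**Figure D2:**
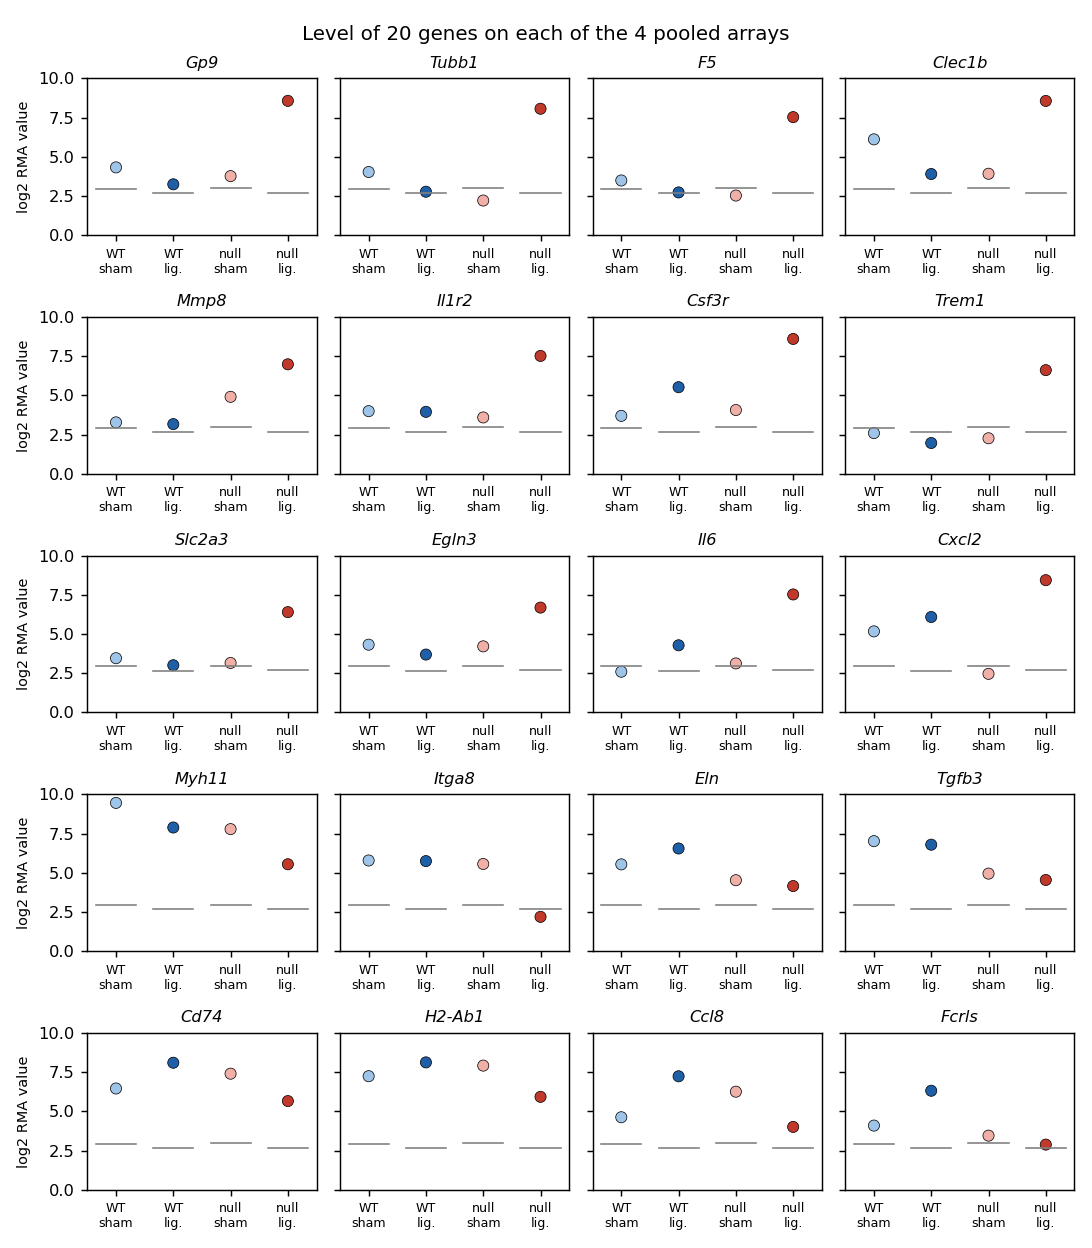
Log2 RMA values of 20 genes on the 4 pooled arrays, 1 panel per gene and 1 point per array; short grey lines mark the background of each array. In the upper 3 rows the array labelled Cd39-null, ligated, is the highest point, as for Gp9 at 8.57 and Il6 at 7.53; in the lower 2 rows it is the lowest, as for Myh11 at 5.54, and Ccl8 peaks in wild type, ligated, at 7.25.

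Inflammatory mediators had more members on the higher than on the lower side. Of 26 measured genes of the interleukin-1, inflammasome and interleukin-6 list, 10 were at least 2-fold higher and 1 lower, against 3.61% and 2.66% of all genes, and the median was 0.85. The highest difference in this list was that of Il1r2 (3.57), which is also in the neutrophil list. Il6 read 2.60, 4.28, 3.13 and 7.53, a difference of 3.25. Il1b differed by 2.10, the accessory chain Il1rap by 1.82 and the antagonist Il1rn by 1.79. The one lower gene was Lifr, the receptor chain for leukemia inhibitory factor, at 6.51, 6.05, 6.11 and 3.72. The shared receptor chain Il6st was at -0.34 and Casp1, the inflammasome protease, at -0.19, so neither of these was 2-fold apart.

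Of 17 CXC chemokine and receptor genes 7 were at least 2-fold higher, against 3.61% of all genes, and 1 lower, with a median of 0.26. Cxcl3 (3.13), Cxcl2 (2.35) and Cxcl1 (1.57), ligands of Cxcr2, were among them, with Cxcr2 itself at 2.41 and Cxcr4 at 1.78. Cxcl12, the stromal ligand of Cxcr4, was the lower one at -1.16. Of 18 CC chemokine genes 6 were higher and 2 lower, against 3.61% and 2.66% of all genes, with a median of 0.39. The higher ones included the receptor Ccr1 (2.47), Ccl4 (2.35), the atypical receptor Ccrl2 (2.10), Ccl24 (1.92) and Ccl3 (1.49). The lower ones were Ccl19 (-1.17) and Ccl8, a macrophage chemokine that read 4.63, 7.25, 6.26 and 4.01, a 9.40-fold difference. Ccr2, the receptor of inflammatory monocytes, was at -0.25.

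Cxcl2 and Cxcl3 are shown with their start regions because both hold the NF-kB motif, a site of the main inflammatory transcription factor; capitals mark overlapping matches on both strands.
Cxcl2, chr5:90903649-90903948, plus strand: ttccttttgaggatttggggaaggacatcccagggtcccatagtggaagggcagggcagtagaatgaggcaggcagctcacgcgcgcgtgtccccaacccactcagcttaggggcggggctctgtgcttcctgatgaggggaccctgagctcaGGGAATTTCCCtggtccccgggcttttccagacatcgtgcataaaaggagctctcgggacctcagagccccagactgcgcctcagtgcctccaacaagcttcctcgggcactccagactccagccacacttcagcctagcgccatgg
Cxcl3, chr5:90785851-90786150, plus strand: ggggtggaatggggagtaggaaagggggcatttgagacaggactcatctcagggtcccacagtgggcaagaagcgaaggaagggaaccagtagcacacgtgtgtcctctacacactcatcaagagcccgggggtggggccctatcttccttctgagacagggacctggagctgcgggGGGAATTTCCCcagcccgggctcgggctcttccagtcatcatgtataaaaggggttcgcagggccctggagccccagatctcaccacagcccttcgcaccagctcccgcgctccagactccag
The motif was found in 4 of the 13 CXC genes with a listed start region, Cxcl1, Cxcl2, Cxcl3 and Cxcl10. It was found in 3.28% of all 27025 regions, in 3.95% of those of the measured genes and in 4.65% of those of the higher genes. Cxcl10 holds it and is not among the genes at least 2-fold apart.

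Glycolysis and hypoxia genes were higher nearly throughout. The difference was above 0 for 24 of the 25 measured, and the median was 0.97, or 1.96-fold. At least 2-fold higher were 11, against 3.61% of all genes, and none was lower. The glucose transporter Slc2a3 read 3.46, 3.01, 3.16 and 6.40, a difference of 3.39. The oxygen-sensing hydroxylase Egln3 read 4.32, 3.69, 4.22 and 6.69, a difference of 3.00. Slc16a3, which exports lactate, differed by 1.96, Slc2a1 by 1.80 and the mitophagy gene Bnip3 by 1.72. For 22 of the 25 the array labelled Cd39-null, ligated, was the highest of the 4. Mitochondrial respiration genes were level, with 0 of 25 at least 2-fold apart in either direction and a median of -0.00. Platelet (2.86) and neutrophil (1.76) medians moved in the same direction as the glycolysis median, and their part in it was not tested.

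Egln3 and Slc16a3 carry ACGTG, the core letters bound by hypoxia-inducible factors, in their start regions.
Egln3, chr12:54203825-54204124, minus strand: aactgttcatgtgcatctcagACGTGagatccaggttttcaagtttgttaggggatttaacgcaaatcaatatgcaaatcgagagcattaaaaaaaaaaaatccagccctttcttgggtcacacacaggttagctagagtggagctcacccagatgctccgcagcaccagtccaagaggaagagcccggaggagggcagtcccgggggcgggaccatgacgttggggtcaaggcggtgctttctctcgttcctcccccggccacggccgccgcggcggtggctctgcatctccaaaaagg
Slc16a3, chr11:120948817-120949116, plus strand: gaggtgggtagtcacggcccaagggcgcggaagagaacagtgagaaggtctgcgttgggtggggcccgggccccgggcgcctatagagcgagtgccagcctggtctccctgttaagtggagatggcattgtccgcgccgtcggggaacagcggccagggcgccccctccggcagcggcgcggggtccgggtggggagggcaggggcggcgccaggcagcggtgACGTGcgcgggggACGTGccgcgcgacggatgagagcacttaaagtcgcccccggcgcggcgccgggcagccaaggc
The letters were present in 14 of the 23 glycolysis and hypoxia genes with a listed start region, or 60.9%, and in 19.7% of all regions. Among the higher genes as a whole the share was 23.8% and among all measured genes 24.1%.

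Of 26 measured heme, iron and redox genes, 5 were at least 2-fold higher, against 3.61% of all genes, and none lower, with a median of 0.37. The cystine transporter Slc7a11, under background in wild type, ligated, was at least 4.12-fold higher. The glutathione reductase Gsr differed by 1.73, the glutathione synthesis subunit Gclm by 1.51, the iron exporter Slc40a1 by 1.35 and the sulfiredoxin Srxn1 by 1.22. Few red cell genes were measured. Alas2, the first enzyme of heme synthesis in red cells, read 5.45, 4.86, 4.96 and 7.34, and Car2, a carbonic anhydrase, differed by 1.06, while the other 5 of 7 were less than 2-fold apart.

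Purinergic genes, the pathway of the deleted enzyme, had 5 of 20 measured members at least 2-fold higher, against 3.61% of all genes, none lower, and a median of -0.08. Nt5e, the enzyme that makes adenosine from AMP, read 3.54, 3.81, 4.08 and 6.77, a difference of 2.96. The platelet ADP receptor P2ry12 (4.93, 5.64, 4.33 and 7.47), the related P2ry13 (1.38) and the ATP-gated channel P2rx1 (1.00) were higher too. So was Entpd3, another ectonucleotidase, which was under background in wild type, ligated, and at least 3.06-fold higher. Lower values belonged to the ATP-gated channel P2rx7 (-0.83), the adenosine deaminase Ada (-0.82) and the nucleoside transporter Slc29a1 (-0.78), none of them 2-fold apart. P2ry12 and P2rx1 are carried by platelets.

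**Figure D3:**
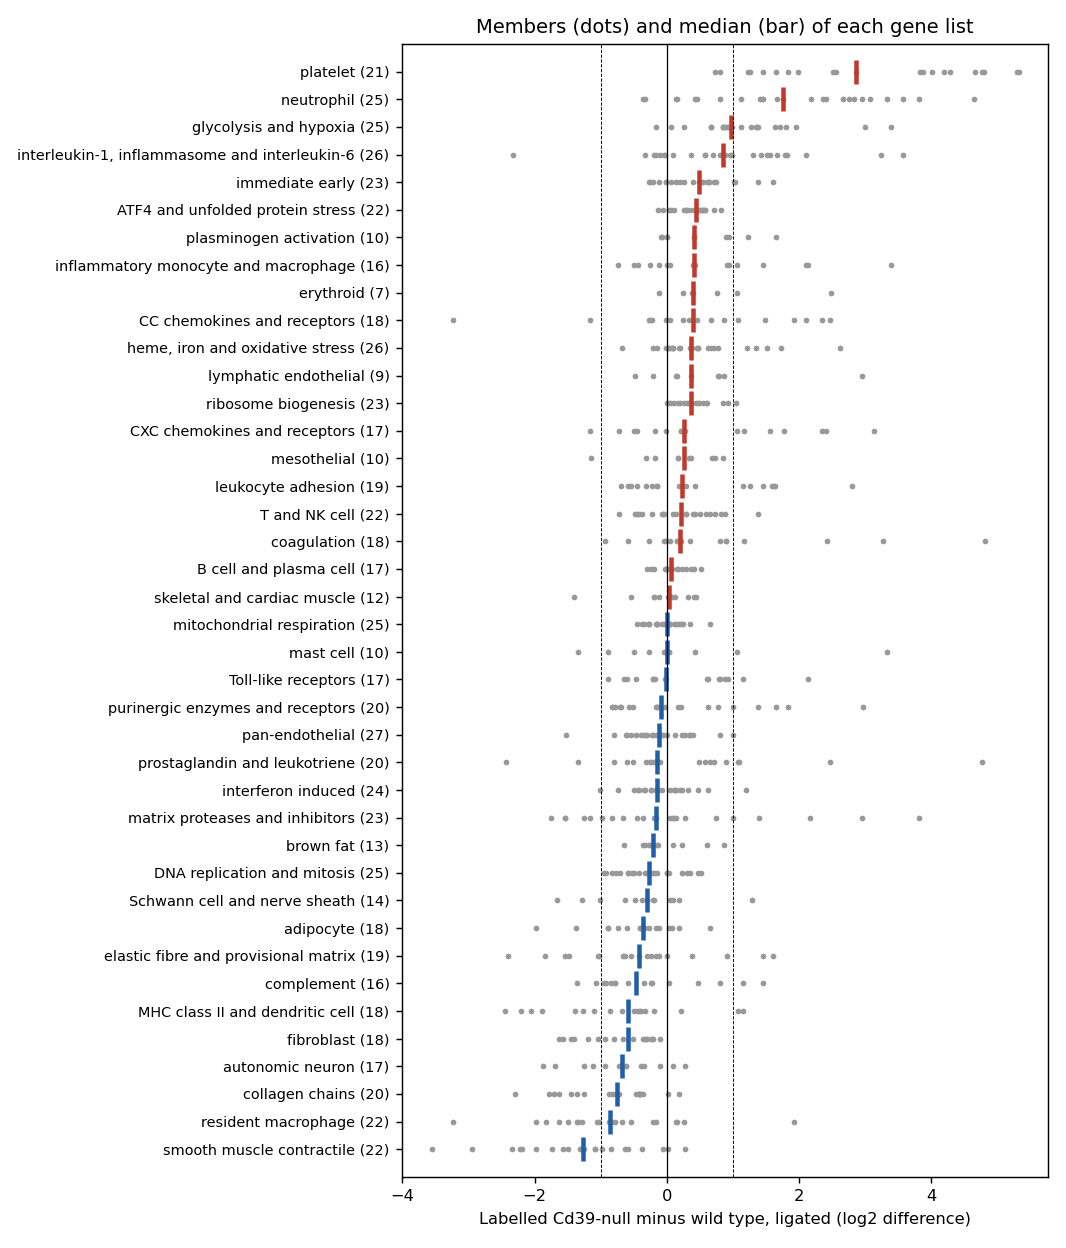
For each of 40 gene lists, grey dots are the log2 differences (array labelled Cd39-null, ligated, minus wild type, ligated) of the measured members and the coloured bar is their median; the number of members stands in brackets and dashed lines mark 2-fold. Platelet (2.86), neutrophil (1.76) and smooth muscle (-1.27) are the lists with a median beyond 2-fold.

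At the lower end, smooth muscle contractile genes led the lists. Of 22 measured members of 23, 14 were at least 2-fold lower and none higher, against 2.66% of all genes, with a median of -1.27, or 2.42-fold. Myh11, the smooth muscle myosin heavy chain, read 9.46, 7.89, 7.79 and 5.54. Pdlim3, a Z-line protein, read 7.13, 6.96, 5.82 and 4.01. In both, each array lies below the one to its left in this order, and wild type, ligated, is above both arrays labelled Cd39-null.

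Itga8, an integrin chain of smooth muscle, read 5.78, 5.74, 5.56 and 2.18, so that the last array alone is low and the gene was at least 8.39-fold lower there. Myocd, the coactivator that drives contractile genes, read 5.13, 4.39, 3.25 and 2.65, at least 3.28-fold lower. Kcnmb1, a potassium channel subunit, differed by -2.22, the pericyte gene Rgs5 by -2.19 and calponin, Cnn1, by -1.97. Acta2, smooth muscle actin, differed by -1.30. Mylk (-0.06), Cald1 (0.01) and Myl9 (0.28), which non-muscle cells also use, were level. The sham pair, which shares no array with the ligated pair, had a list median of -1.29, and 18 of 22 genes were at least 2-fold lower in Cd39-null, against 3.54% of all genes. Other tissue markers were apart in that sham pair as well, against 2.95% of all genes higher: brown fat genes (median 2.06, 10 of 13 at least 2-fold higher), adipocyte genes (1.05, 10 of 18) and B cell genes (1.77, 11 of 17). In ligated veins these lists had medians of -0.21, -0.36 and 0.07. Above background on both ligated arrays were 8 of 13 brown fat, 16 of 18 adipocyte and 10 of 17 B cell genes, which limits these medians. The part of tissue makeup in the smooth muscle values was not tested.

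**Figure D4:**
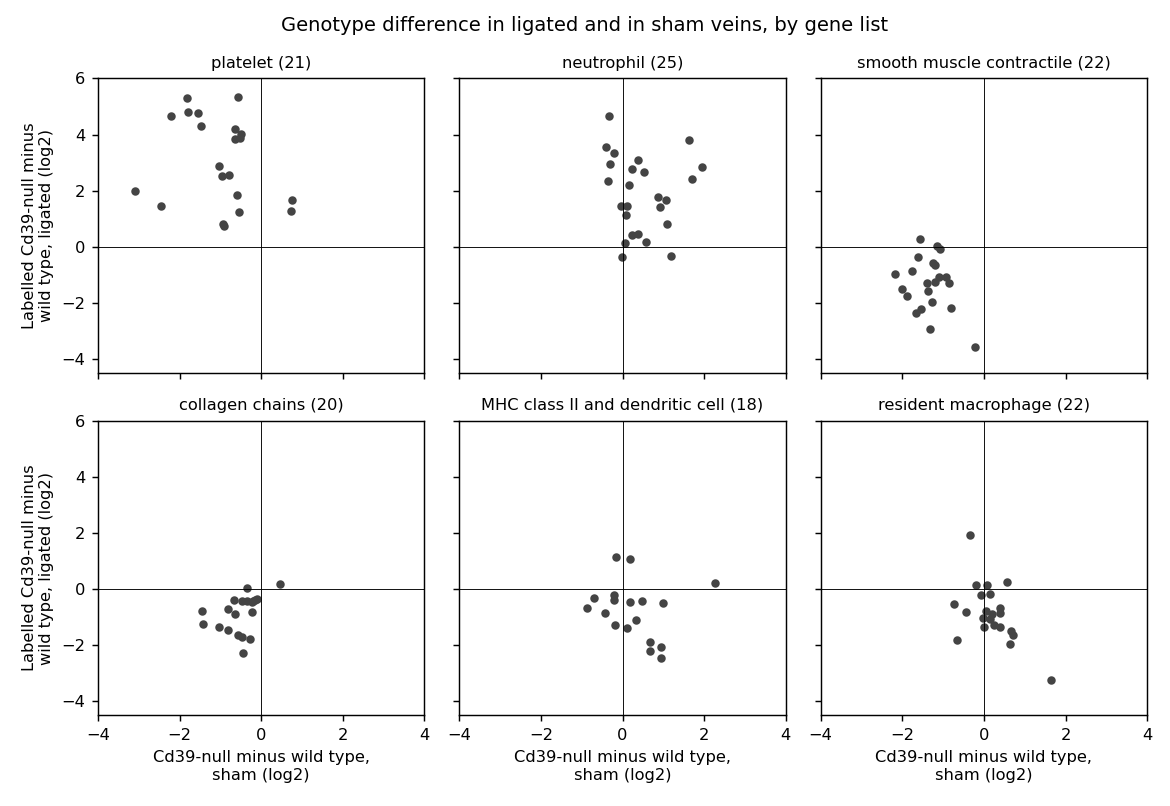
Members of 6 gene lists by their log2 genotype difference in sham veins (horizontal axis) and in ligated veins (vertical axis, with the array labelled Cd39-null); the pairs share no array. Smooth muscle genes lie mostly in the lower left, with medians of -1.29 and -1.27, while platelet genes lie mostly in the upper left, with medians of -0.92 and 2.86.

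The macrophage lists had medians of opposite sign, but neither moved as a block. Of 22 resident macrophage genes 10 were at least 2-fold lower and 1 higher, against 2.66% and 3.61% of all genes. The median was -0.86. Besides Ccl8, Cbr2, a carbonyl reductase, read 4.14, 6.77, 4.78 and 4.80, and Gas6, a ligand for the clearance of dead cells, read 6.66, 7.56, 5.99 and 5.74. The mannose receptor Mrc1 (5.96, 8.07, 6.35 and 6.72) and the complement gene C1qa (4.07, 5.98, 4.06 and 4.61) showed the same outline. In Cbr2, Mrc1 and C1qa wild type, ligated, is high and the other 3 arrays are close to each other. Fcrls, an Fc receptor-like gene of macrophages, had the lowest difference among genes above background on both ligated arrays, at 4.10, 6.32, 3.45 and 2.88. Aoah (3.02, 5.27, 3.43 and 2.78), which inactivates endotoxin, and Ly86 (5.31, 8.09, 6.06 and 5.72), a partner of a Toll-like receptor homologue, were like it. Gpr34, a lysophospholipid receptor, was at least 2.95-fold lower. The resident gene on the higher side was Ccl24 (1.92). The other 11 of the 22 were less than 2-fold apart, several of them nearly level, and 4 of the 22 had a difference above 0.

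Inflammatory monocyte and macrophage genes had a median of 0.42. Of 16, 5 were at least 2-fold higher, against 3.61% of all genes, and none lower. The 5 include Thbs1 (1.46), which is also in the platelet list. Chil3, a chitinase-like protein, read 5.56, 4.97, 4.11 and 8.37, the endotoxin co-receptor Cd14 differed by 2.13 and the arginine-degrading Arg1 by 2.10. Cybb (-0.74), Ms4a6c (-0.50) and Cd68 (-0.44) were below 0, and Ccr2 was at -0.25. The monocyte genes thus did not differ as a block.

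Of 18 genes of MHC class II and dendritic cells 7 were at least 2-fold lower, against 2.66% of all genes, and 2 higher, with a median of -0.58. Cd74, the invariant chain, read 6.47, 8.11, 7.41 and 5.66, and the class II chain H2-Ab1 read 7.25, 8.13, 7.93 and 5.93. For both genes the array labelled Cd39-null, ligated, is the lowest and wild type, ligated, the highest. H2-Aa differed by -2.05, H2-Eb1 by -1.88 and Ciita, the activator of class II genes, by -1.11. The higher genes were Itgax (1.16) and Ccr7 (1.07). Hpgds, the prostaglandin D synthase of macrophages and dendritic cells, read 3.26, 6.14, 4.55 and 3.70. Among 20 prostaglandin and leukotriene genes, 4 were at least 2-fold higher and 2 lower, against 3.61% and 2.66% of all genes. The highest of them was Alox12 (4.76), which is also in the platelet list. Ptgs2, the inducible cyclooxygenase, differed by 2.47.

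Of 18 measured fibroblast genes 6 were at least 2-fold lower and none higher, against 2.66% and 3.61% of all genes. All 18 had a difference below 0, with a median of -0.59. Of 20 collagen chains 7 were at least 2-fold lower and none higher, with a median of -0.75. Of 19 genes of elastic fibres and provisional matrix 6 were lower and 2 higher, with a median of -0.42. Col14a1 (6.28, 6.63, 5.83 and 4.33), Col6a2 (-1.79) and Col6a1 (-1.71) had the lowest values, and Col1a1 read 5.34, 7.61, 4.76 and 5.99. Basement membrane chains were nearer to 0, with Col4a2 at -0.40 and Col4a3 at 0.02. Elastin, Eln, read 5.54, 6.55, 4.52 and 4.15, and Fbln5, which assembles elastic fibres, differed by -1.84. Fndc1 (6.34, 6.10, 5.15 and 3.26) and P4ha3, a collagen prolyl hydroxylase (2.91, 5.21, 2.18 and 2.78), were among the 15 lowest genes above background on both ligated arrays. In the sham pair the median was -0.39 for fibroblast genes, -0.45 for collagen chains and -0.73 for elastic fibre and provisional matrix genes. There 1 of 18, 3 of 20 and 8 of 19 were at least 2-fold lower in Cd39-null, against 3.54% of all genes.

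Matrix proteases and their inhibitors went in both directions, with 5 of 23 at least 2-fold higher and 5 lower, against 3.61% and 2.66% of all genes. Mmp8, Mmp9 (2.95) and Adam8 (2.17), which leukocytes carry, were higher, while Mmp23 (-1.76), Timp2 (-1.53) and Timp3 (-1.53) were lower. The provisional matrix gave Has2, a hyaluronan synthase, at 1.61 and thrombospondin 1, Thbs1, at 1.46, against Thbs2 at -1.54 and Postn at -1.48. Thbs1 is stored in platelets.

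The remaining lists varied in how many members were 2-fold apart. Over all genes 3.61% were higher and 2.66% lower. Of 27 endothelial genes 1 was at least 2-fold lower (Clec14a, -1.52) and none higher, with a median of -0.12. The endothelial list was at -0.89 in the sham pair. B cell genes (median 0.07), brown fat genes (-0.21) and replication and mitosis genes (-0.26) had 0 members at least 2-fold apart, of 17, 13 and 25 measured. Only 10 of the 17 B cell and 8 of the 13 brown fat genes were above background on both ligated arrays. The differences of the rest cannot be read. Autonomic neuron genes had 4 of 17 at least 2-fold lower and none higher, with a median of -0.68. Chrna3, a ganglionic receptor subunit, was at least 2.45-fold lower and Dbh, which makes noradrenaline, was at -1.69. Leukocyte adhesion genes had 7 of 19 at least 2-fold higher, against 3.61% of all genes, and none lower, with a median of 0.23, led by the integrin Itgal (2.80), the hyaluronan receptor Cd44 (1.64) and the shared chain Itgb2 (1.62). Of 23 immediate early genes 4 were higher, among them Atf3 (1.61) and the phosphatase Dusp1 (1.38). Interferon-induced genes had 1 of 24 higher (Rsad2, 1.20) and 1 lower (Ifit3, -1.01). Stress genes regulated by ATF4 had 0 of 22 and ribosome biogenesis genes 1 of 23 at least 2-fold apart. Complement genes had 2 of 16 higher and 2 lower, with a median of -0.46. The Toll-like receptor list, which also holds the co-receptor Cd14, had 2 of 17 higher and none lower. Its highest gene was Cd14 (2.13), which is also in the monocyte list. Adipocyte genes had 2 of 18 lower, with Lpl, a lipoprotein lipase, at -1.37. Nerve sheath genes had 1 of 14 higher and 3 lower, and mast cell genes 2 of 10 higher and 1 lower. The highest mast cell gene was Hdc (3.33), which is also in the neutrophil list. T and NK cell genes had 1 of 22 higher. So had 1 of 9 lymphatic genes, Mmrn1, at 2.95, while the other 8 were less than 2-fold apart. Mmrn1 was at -1.23 in the sham pair. The platelet list had the same signs, with medians of 2.86 and -0.92, and its part in Mmrn1 was not tested. Mesothelial and striated muscle genes each had 1 lower, of 10 and 12. Of 7 genes listed as candidates for substrain or passenger differences none was 2-fold apart.

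Genes outside these groups also stood far apart. Spatc1 read 3.15, 3.62, 3.45 and 8.35, the fifth-highest difference among genes above background on both ligated arrays. With the mean of its 2 probe sets its difference was 3.14 instead of 4.73. Hcar2, a receptor for hydroxybutyrate and niacin, read 2.94, 2.87, 2.90 and 6.56, and Ly6g6c, of the Ly6 family, read 4.40, 2.85, 3.87 and 6.67. Nos2, the inducible nitric oxide synthase, was under background on the other 3 arrays and at 5.99 on the array labelled Cd39-null, ligated, at least 10.1-fold above wild type, ligated. Mfsd2b, a sphingosine-1-phosphate exporter of blood cells, was at least 17.2-fold higher and Slamf1, a leukocyte receptor, at least 8.94-fold. On the lower side were Map3k7cl (6.32, 6.64, 5.27 and 4.02), the matricellular Ccn3, at least 6.98-fold lower, and Slc16a7, a monocarboxylate transporter, at least 3.09-fold lower.

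MicroRNA host regions were measured through 132 genes, of which 6 were at least 2-fold higher and 4 lower, with a median of 0.02. These counts are near the 3.61% and 2.66% of all genes, so microRNA genes did not stand apart, and single ones are given only as values. The probe sets read RNA over the hairpin, not the mature microRNA. Mir142, which is specific to blood cells, read 1.68, 1.77, 2.78 and 4.28 and was at least 3.06-fold higher. Mir15a read 3.69, 3.97, 3.89 and 5.10, while its neighbour Mir16-1 was under background in wild type, ligated, at 1.89 and read 3.02, at least 1.29-fold higher. The mature forms are shown with bases 2 to 8, the seed, in capitals, because Mir15a and Mir16-1 share a seed that Mir142 does not.
mmu-miR-142a-3p: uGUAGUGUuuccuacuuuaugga
mmu-miR-15a-5p: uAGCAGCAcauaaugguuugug
mmu-miR-16-5p: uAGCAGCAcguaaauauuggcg

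The ligated and sham genotype differences overlapped more on the lower than on the higher side. Of the 375 lower genes 77 (20.5%) were also at least 2-fold lower in the sham pair, which is 15.4% of the 499 lower there. Of the 510 higher genes 38 (7.45%) were also higher in the sham pair, or 9.13% of its 416, and 32 were lower. The share among all genes was 3.54% lower and 2.95% higher. With limma's moderated test of the genotype term in an additive model over all 4 arrays, 0 of the 14115 genes (0%) passed an adjusted p of 0.05. An unadjusted p under 0.05 was reached by 979, of which 322 were higher and 657 lower; 0.05 of the genes tested would be about 706. The smallest Benjamini-Hochberg adjusted p in limma was 0.667. It was shared by many genes of many kinds, and the few given here are a choice from them. The gene with the lowest unadjusted p, a noncoding RNA, is not among the few. Tgfb3 (7.02, 6.79, 4.95 and 4.54, mean difference -2.16 ± 0.225 SE), Myocd (-1.81 ± 0.224) and Myh11 (-2.01 ± 0.270) were lower in both surgeries. The neutrophil genes Retnlg (2.38 ± 0.301) and Cxcr2 (2.05 ± 0.277) had the same adjusted p and were higher in both. With 1 residual degree of freedom the fit averages the surgeries, so it does not test the ligated pair itself.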

How the data were processed

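Total RNA of the inferior vena cava was amplified as cDNA from 50 ng, labelled with biotin and put on Affymetrix arrays, per the labels' protocols, with 1 array for each pool of 4 mice. The authors deposited log2 expression values per probe set. The submitters' processing notes name oligo and RMA; their versions, and any build, are not given in the sources used. RMA equalises the arrays, so a global shift in RNA content would be hidden. Arrays have no read depth; their number limits the precision.

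The deposited log2 values were used without further scaling, in Python 3.11.15 with pandas 2.3.3. Of 35556 probe sets, 21218 carried 1 gene symbol in the platform annotation, 1881 several and 12457 none; only the first were used. Of these, 21185 matched a RefSeq table of GRCm38.p6 by Entrez identifier, and 0 symbols differed. Genes were kept where the mean of the brightest probe set was at or above the 25th percentile (2.29). Differences between arrays have no test; limma 3.58.1 in R 4.3.3 fitted genotype and ligation additively over 4 arrays and was tested on simulated data.

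The comparison, the 43 gene lists and the rule for named genes were chosen with earlier results of these data known. The rule took the 15 highest and 15 lowest genes above background on both ligated arrays, the 5 highest and 5 lowest with 1 side under background, up to 5 high and 3 low members of each list and members against a list's direction. Genes recognised by symbol as predicted, noncoding or receptor segments were left out of the rankings. MicroRNA genes, Tgfb3, Retnlg, further low members of lists such as Kcnmb1, Rgs5, Cnn1, Acta2, Mrc1, C1qa, H2-Eb1 and Ciita, members of mixed lists between the extremes such as Plau and Cxcl10, and the motifs were chosen after their values were seen. Alternatives were the filter, the normalization, the treatment of several probe sets, a floor at background and the fold threshold.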

Additional observations from a re-analysis of the deposited data

Results flagged for a closer look

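Among 179 measured genes named in the text, 13 had a genotype difference of at least 2-fold in ligated and in sham veins but in opposite directions. Over all 14115 genes, 32 of the 510 higher in ligated veins (6.27%) were at least 2-fold lower in the sham pair. Of the 375 lower in ligated veins, 15 (4.00%) were higher in the sham pair. Most named genes were chosen for a large ligated difference, so 13 of 179 is not a share of all genes. A model with separate genotype differences for each surgery leaves no residual degrees of freedom with 4 arrays, so the difference between them was not tested, and each direction in ligated veins rests on the label of 1 array. The platelet list holds 6 of the 13. Tubb1 differed by 5.30 in ligated and by -1.82 in sham veins, Alox12 by 4.76 and -1.55, and Clec1b by 4.67 and -2.20. Gp5 differed by 4.29 and -1.47, and Mpig6b by 4.80 and -1.78. The macrophage chemokine Ccl8 and the prostaglandin synthase Hpgds ran the other way, at -3.23 and 1.63 for Ccl8 and at -2.44 and 1.29 for Hpgds. Blnk, a B cell adaptor near Entpd1, differed by -1.82 and 1.72, and the noncoding Rian by -1.58 and 1.00. Chil3 differed by 3.40 and -1.45, Cxcl2 by 2.35 and -2.71, Mmrn1 by 2.95 and -1.23 and Thbs1 by 1.46 and -2.46. Mpig6b was under background in wild type, ligated, Tubb1, Mpig6b and Cxcl2 in Cd39-null, sham, and Rian in wild type, sham, and in the ligated pool with the Cd39-null label, so those differences are approximate.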

How the results depend on the processing

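In all 885 genes differed at least 2-fold, and this count lay between 781 and 895 without the filter, with a filter at the 50th percentile, after renormalising by quantiles or cyclic loess, after centring the arrays, with the mean of probe sets and with values raised to background. None of the 885 had the opposite sign under any of these where it was still measured. Of the 885, 783 stayed past 2-fold with the same sign after quantile normalisation; with the stricter filter 781 stayed, as fewer genes are tested. At a 1.5-fold threshold 2519 genes were apart, 1186 higher and 1333 lower, and at a 3-fold threshold 303, with 210 higher and 93 lower. Platelet, neutrophil and smooth muscle medians stayed beyond 2-fold under all of these settings. Glycolysis joined them at 1.02 with centred arrays and the red cell list at 1.06 with the stricter filter. Limma called 0 genes for the genotype term under each of its 3 alternatives. Of 179 measured genes named in the text 147 were at least 2-fold apart, and none of these had the opposite sign in a setting that measured it. Ciita, P2rx1 and Rac2 were under 2-fold after quantile normalisation, Ifit3 after centring, and Mir16-1 when raised to background. Spatc1 moved from 4.73 to 3.14 with the mean of probe sets. No replicate and neither ligated array could be left out, since each group is 1 array. No paired analysis was possible because each group has 1 array and the labels give no replicate numbers. Olfactory background limits the size of differences that reach it.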

Other observations

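Outside the lists, 397 genes were at least 2-fold higher and 303 lower with the Cd39-null label than in wild type, both ligated. Some belonged to families, picked here after their values were seen and therefore given as description. Over all genes 3.61% were higher and 2.66% lower. All 5 measured members of the stefin A family, protease inhibitors of myeloid cells, were at least 2-fold higher, with Cstdc4 at 7.73, 7.71, 8.33 and 10.5 (in the order wild type sham and ligated, Cd39-null sham and ligated). Their near-identical copies may share probes. Some of the 5 were under background in wild type, ligated, and stayed past 2-fold when raised to background. Of 5 measured genes of the phagocyte oxidase 3 were higher, Ncf4 (1.62), Ncf1 (1.29) and Rac2 (1.06), while the membrane subunits Cyba (0.17) and Cybb (-0.74) were not. Of 6 Cd300 receptors 3 were higher, led by Cd300lf (2.79). Among 12 histone genes 4 were higher, with H2ac6 at 2.68, 1.91, 2.20 and 5.68. Some of the 4, H2ac6 among them, were under background in wild type, ligated. Not all of the 4 stayed past 2-fold when raised to background.

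On the lower side, 7 of 12 small leucine-rich proteoglycans, which bind collagen fibrils, were at least 2-fold lower, against 2.66% of all genes. None was higher, and their median was -1.46. Fibromodulin, Fmod, read 5.13, 5.76, 4.73 and 3.33, Aspn read 8.06, 7.28, 6.68 and 4.91, and Ogn read 9.21, 7.70, 8.76 and 5.34, whereas decorin, Dcn, was at -0.32. Their sham median was -0.29. Among 8 TGF-beta ligands and CCN proteins 5 were lower, with Ccn2 at -1.31 and Tgfb2 at -1.16, and Tgfb1 was at 0.82. The sham median of these 8 genes was -0.84. The Wnt antagonists Sfrp1 (-2.12) and Sfrp2 (-1.55), the flavin monooxygenases Fmo2 (-2.29) and Fmo1 (-2.10) and the imprinted noncoding RNAs Meg3 (-1.80) and Rian (at least 2.49-fold) were lower as well.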
